A study of Mus musculus with 12 samples.

Results

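The genes that copy DNA were followed through the estrous cycle of the mouse uterus, as a set of 47. They were chosen by symbol for their known roles in DNA replication and S phase, out of 35896 genes with transcripts in the deposited tables. The samples were whole uteri of 12 wild type female Swiss Webster mice, an outbred stock, aged 8 to 12 weeks. By the labels each of the 4 stages (proestrus, estrus, metestrus, diestrus) has 3 uteri, and they name no treatment or transgene. How each animal was staged is not given in the sources used here. Each uterus gave 1 library by 3' TagSeq, which reads a stretch near the 3' end of polyadenylated RNA, so that levels in CPM (counts per 1000000 counts of the library) were not divided by gene length. Of the 47 genes, 43 had enough counts to be tested, and Orc1, Pole2, Chaf1a and Chaf1b did not.

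Before a cell divides it must license its replication origins, open them, and copy each strand once. The origin recognition complex with Cdc6 and Cdt1 loads a ring of Mcm proteins. Cdc45 and the GINS complex turn that ring into a moving helicase. Polymerases held by the Pcna clamp then copy the strands while ribonucleotide reductase and its partner enzymes supply nucleotides. In rodents estrogen drives rounds of DNA synthesis in the uterine epithelium, and many genes of this machinery are transcribed under E2F factors as cells pass from G1 into S phase. A low level of such a transcript in whole tissue can come from fewer cycling cells or from less RNA per cell, which cannot be told apart here.

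E2F factors bind DNA letters of the form TTTCCCGC, TTTGGCGC, TTTCGCGC or TTTGCCGC. These letters were searched on both strands of the 300 bases around the start of each gene in the RefSeq promoter table (GRCm38.p6, 250 bases before to 50 after the start), with overlapping matches of different forms counted. The table held 39 of the 47 genes, and 15 of these (38.5%) had at least 1 match, against 704 of 27025 genes in the whole table (2.60%) and 4.63% of the 9288 tested genes with a window. The letters stood in 7 of the 21 genes with a window that were called lower in estrus than in proestrus (33.3%) and in 6 of the 14 that were tested and not called (42.9%). CCAAT, the letters read by the factor NF-Y, stood on either strand in 24 of the 39 (61.5%), against 41.1% of all genes in the table. The upstream stretches of 160 bases below show 3 genes called lower in estrus whose matches lay before the start, and Cdc45, the only replication gene with its highest mean in estrus, whose stretch had none. They are written 5′ to 3′ on the gene's strand with the matching letters in capitals. The Cdc45 stretch was moved 15 bases further upstream, so its CCAAT matches at -13 and -2 lie outside it.

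Mcm5 (chr8:75109349-75109508, plus strand): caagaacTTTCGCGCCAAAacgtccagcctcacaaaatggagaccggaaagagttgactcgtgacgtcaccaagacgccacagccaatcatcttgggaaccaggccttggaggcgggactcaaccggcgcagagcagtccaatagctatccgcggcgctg
Mcm6 (chr1:128359706-128359865, minus strand): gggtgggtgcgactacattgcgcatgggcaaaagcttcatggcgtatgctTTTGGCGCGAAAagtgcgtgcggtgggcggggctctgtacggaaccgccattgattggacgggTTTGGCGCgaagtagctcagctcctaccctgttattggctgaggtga
Pola1 (chrX:93632156-93632315, minus strand): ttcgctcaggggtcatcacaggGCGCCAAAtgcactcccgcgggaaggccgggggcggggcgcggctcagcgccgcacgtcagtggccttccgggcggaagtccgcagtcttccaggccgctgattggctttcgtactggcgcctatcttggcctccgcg
Cdc45 (chr16:18811988-18812147, minus strand): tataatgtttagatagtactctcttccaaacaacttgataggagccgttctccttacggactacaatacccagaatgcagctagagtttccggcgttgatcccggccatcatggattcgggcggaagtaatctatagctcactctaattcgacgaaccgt

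In Mcm5 a pair of forms overlapped in 12 bases, and Mcm6 had such an overlapping pair and a further match nearer the start, 20 matching bases in all. Pola1 had 1 match of 8 bases. A match is a string of letters and not a measured binding site.

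Totals ran from 1652841 to 2200563 estimated counts, at which 3 counts equal 1.37 to 1.83 CPM. Of the markers of the labelled tissue, all 6 uterine genes on the list (Hoxa10, Hoxa11, Esr1, Pgr, Foxa2 and Wnt7a) passed the filter, while of 7 ovarian markers Fshr was at 0 in all 12 libraries and Amh and Cyp19a1 had 2 and 3 counts in all. The others were Cyp11a1 with 18 counts, Inha with 38, Inhba with 235 and Star with 290, the highest at 24.0 CPM in any library. Metestrus 6 stood apart in what follows. It was the highest of the 3 metestrus uteri in 39 of the 43 tested replication genes, against 30.9% of all 12052 tested genes, while metestrus 5 was the lowest in 22 and metestrus 7 in 21.

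Over the cycle the 47 genes together were lowest in estrus. Their summed level was 1430, 1309 and 1610 CPM in proestrus 1, 2 and 3, then 759.6, 733.3 and 710.3 in estrus 3, 4 and 5. It was 867.2, 1440 and 901.4 in metestrus 5, 6 and 7, and 1123, 1081 and 1180 in diestrus 3, 4 and 5. The estrus sum was 50.7% of that of proestrus, and the 3 estrus uteri lay close together, below every other uterus. Single values below follow this order of stages and replicate numbers. Gene coordinates are those of GENCODE M21 (GRCm38). Estrus had the lowest stage mean in 40 of the 43 tested genes, and proestrus the highest in 32, diestrus in 9, metestrus in 1 and estrus in 1.

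**Figure D1:**
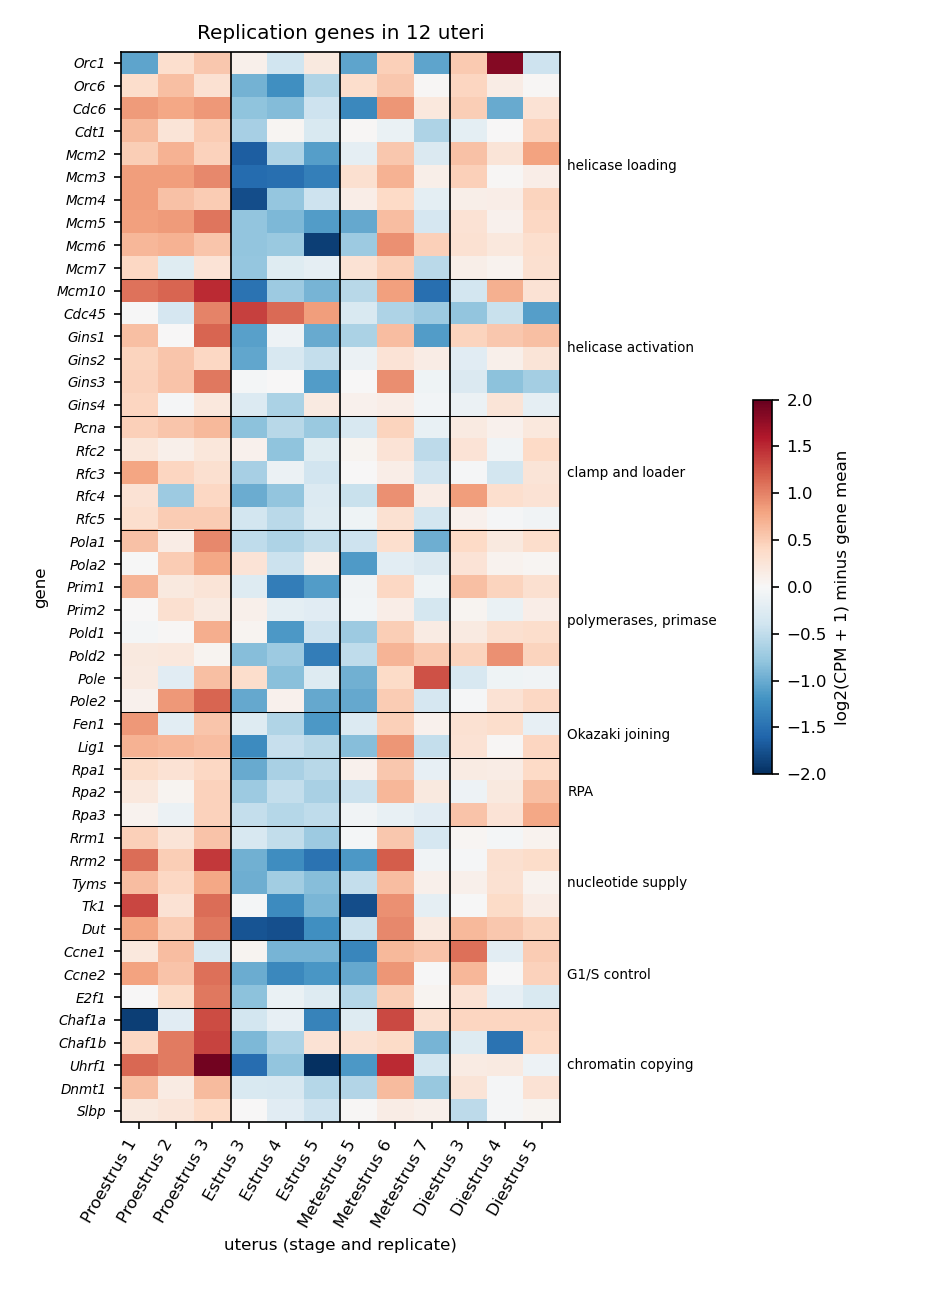
Heat map of log2(CPM + 1) minus each gene's mean over the 12 uteri, for all 47 genes (rows, by role) and 12 uteri (columns, by stage and replicate). The 3 estrus columns are mostly blue, metestrus 6 is mostly red while metestrus 5 and 7 are mixed, and Cdc45 runs the other way with its reddest cells in estrus.

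A difference somewhere in the cycle was called for 23 of the 43 (edgeR quasi-likelihood F test over 4 stages, Benjamini-Hochberg adjusted over 12052 genes, p under 0.05, here and below), against 23.2% of all tested genes. The count fell to 15 without proestrus 3, 15 without estrus 4 and 14 without estrus 5, and it was 28 of 44 tested without metestrus 6. The comparison of estrus with proestrus held most of it. In that comparison 24 of the 43 were called, all lower in estrus, against 17.1% of all tested genes called in either direction, 7.46% lower and 9.67% higher. The median log2 fold change was -1.20 over the 43 and 0.02 over all tested genes, and 42 of the 43 values lay below 0. In 34 of the 43 every estrus uterus lay below every proestrus uterus, which held for 18.1% of all tested genes. In 14 of the 43 the 3 estrus uteri lay below all 9 others (Orc6, Mcm2, Mcm3, Mcm4, Mcm6, Gins2, Pcna, Prim1, Pold2, Rpa1, Rpa2, Rpa3, Tyms and Dut), against 5.45% of all tested genes. Leaving out each library in turn gave 18 to 29 calls, the 29 without metestrus 6, and 17 of the 24 were called in all 12 of these fits. The other 7 (Fen1, Lig1, Pola1, Pold2, Prim1, Rfc3 and Tk1) were each lost in at least 1 fit, as given with each gene.

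**Figure D2:**
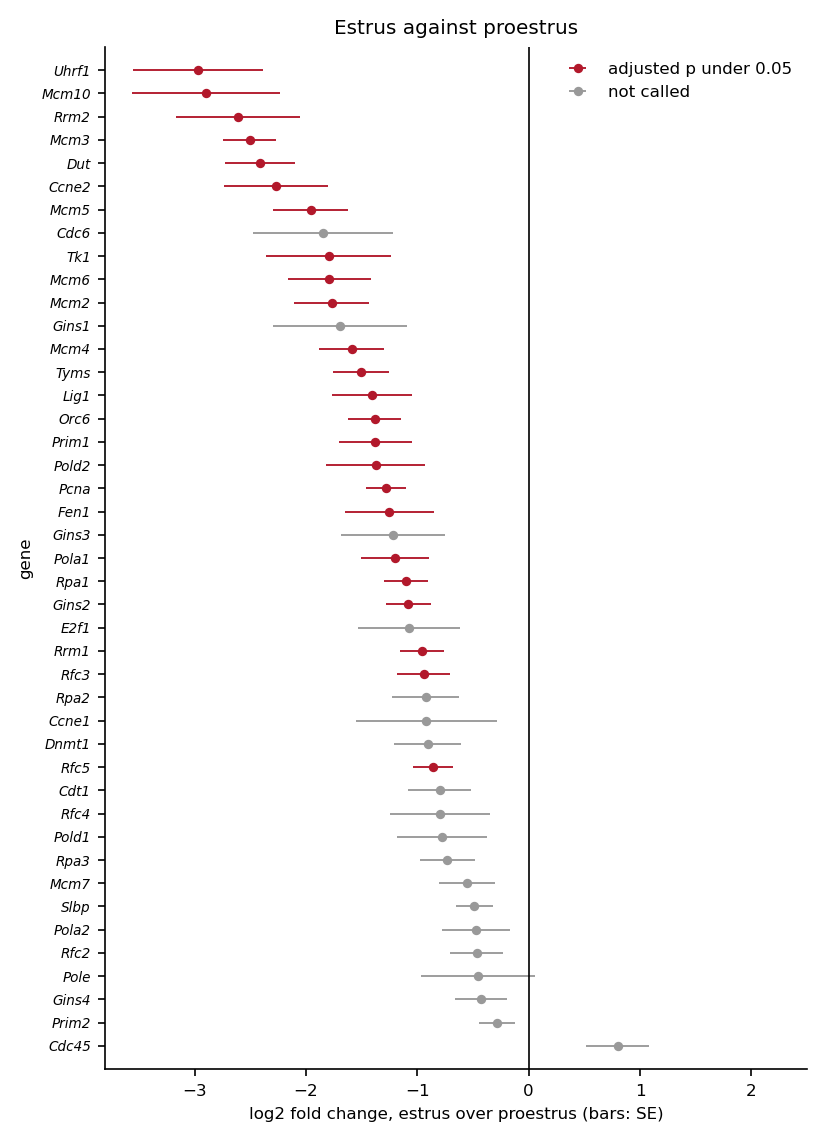
Log2 fold change of estrus over proestrus (x axis; bars are SE of the fit) for the 43 tested genes, ordered by size; red marks edgeR adjusted p under 0.05. All 24 called genes lie left of 0, from Uhrf1 at -2.97 to Rfc5 at -0.86, and Cdc45 alone lies right of 0.

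Among the 9 tested genes of helicase loading, 6 fell in estrus. Mcm3 (chr1:20802968-20820312, minus strand), a subunit of the Mcm ring, had the smallest p of all 43. It measured 33.1, 32.9 and 36.0 CPM in proestrus, 5.57, 5.72 and 6.41 in estrus, 22.8, 29.7 and 19.7 in metestrus and 25.4, 18.3 and 19.8 in diestrus. All 3 estrus uteri lay far below the other 9, and the estrus mean was 5.76-fold lower than that of proestrus (log2 fold change -2.51 ± 0.23 SE, edgeR adjusted p = 6.74e-05). The other subunits followed with wider spread. Mcm2 (chr6:88883474-88898780, minus strand) measured 17.1, 19.9 and 16.8 CPM in proestrus, 3.09, 7.44 and 5.04 in estrus, 10.4, 17.7 and 9.54 in metestrus and 18.4, 14.3 and 21.5 in diestrus (log2 fold change -1.77 ± 0.34 SE, edgeR adjusted p = 0.00403). Mcm5 (chr8:75109569-75128439, plus strand) measured 34.2, 35.0 and 41.1 CPM in proestrus, 10.5, 9.72 and 8.24 in estrus, 8.82, 29.7 and 14.9 in metestrus and 23.4, 20.3 and 25.5 in diestrus, so that metestrus 5 was as low as estrus and metestrus 6 just below the proestrus uteri (log2 fold change -1.96 ± 0.33 SE, edgeR adjusted p = 0.00210). Mcm6 (chr1:128331590-128359664, minus strand) measured 42.2, 43.1 and 39.1 CPM in proestrus, 14.8, 15.4 and 6.41 in estrus, 15.6, 50.5 and 37.0 in metestrus and 32.9, 30.6 and 33.4 in diestrus, and estrus 5 was the lowest uterus of all (log2 fold change -1.79 ± 0.37 SE, edgeR adjusted p = 0.00576). In Mcm4 (chr16:15623897-15637400, minus strand) estrus 3 was lowest, with 35.4, 29.6 and 27.9 CPM in proestrus, 4.95, 10.9 and 14.2 in estrus, 21.3, 25.9 and 16.7 in metestrus and 20.9, 21.3 and 26.6 in diestrus (log2 fold change -1.59 ± 0.29 SE, edgeR adjusted p = 0.00330).

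Orc6 (chr8:85299632-85308278, plus strand), a subunit of the origin recognition complex, measured 25.7, 30.7 and 24.9 CPM in proestrus, 9.90, 8.01 and 12.8 in estrus, 25.9, 29.7 and 20.3 in metestrus and 27.4, 22.2 and 20.4 in diestrus. Its metestrus and diestrus uteri lay close to those of proestrus, and the 3 estrus uteri lay below all 9 (log2 fold change -1.38 ± 0.24 SE, edgeR adjusted p = 0.00224). Mcm7 (chr5:138164583-138172422, minus strand), the gene of this group with the highest CPM, did not pass the test. It measured 73.0, 45.8 and 66.0 CPM in proestrus, 31.6, 45.8 and 48.1 in estrus, 66.9, 75.8 and 37.0 in metestrus and 58.8, 57.3 and 67.9 in diestrus, with proestrus and estrus overlapping (log2 fold change -0.55 ± 0.25 SE, edgeR adjusted p = 0.153). In addition, 24.4% of its 31-base words also occur in the pseudogene Gm5487, so its counts are uncertain. Cdc6 and Cdt1, which bring the ring to the origin, had log2 fold changes of -1.85 ± 0.62 SE (edgeR adjusted p = 0.0573) and -0.80 ± 0.28 SE (edgeR adjusted p = 0.0664) and did not pass. Cdc6 passed in 3 fits that each left out a library of another stage, with 0.0238 without metestrus 5 as the lowest edgeR adjusted p. Orc1 had 0 to 13 counts in a library, 7 in all of proestrus and 6 in estrus (ratio 1.16, exact 95% interval 0.334 to 4.18, counting error only), so no difference was detectable at this depth.

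**Figure D3:**
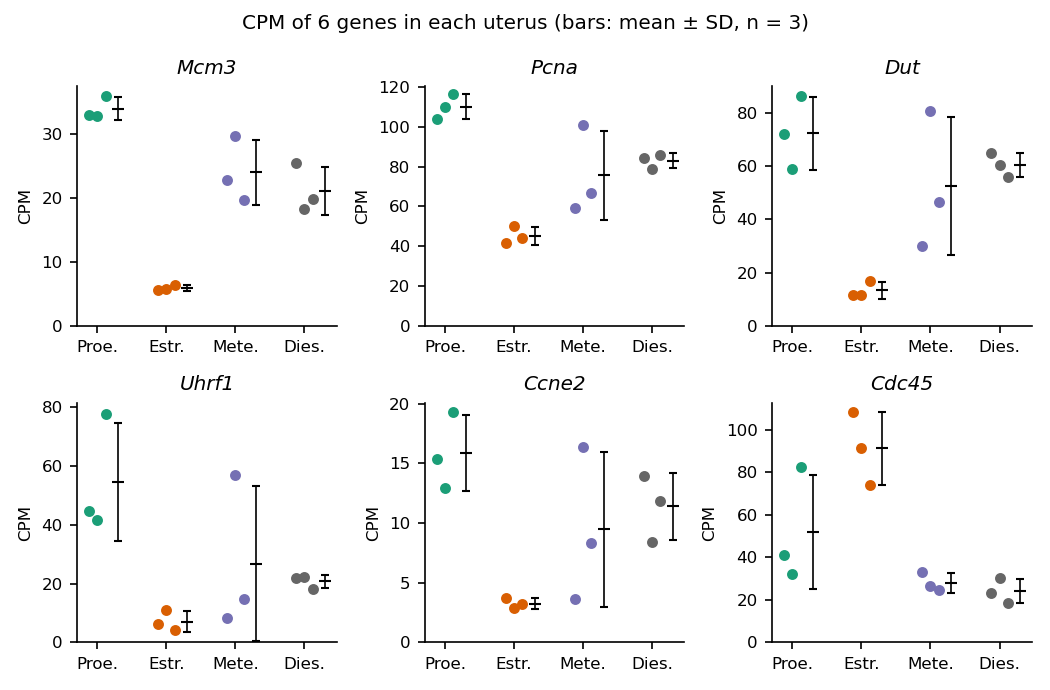
CPM in each of 12 uteri for Mcm3, Pcna, Dut, Uhrf1, Ccne2 and Cdc45 by stage (points are uteri; bars are mean ± SD, n = 3). The first 5 genes have their lowest stage mean in estrus with 1 high metestrus uterus, replicate 6, and Cdc45 has its highest values in estrus.

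Of the 6 genes that activate the helicase, 2 fell in estrus. Gins2 (chr8:120578633-120589304, minus strand), a GINS subunit, measured 43.4, 46.9 and 42.6 CPM in proestrus, 14.8, 25.2 and 22.4 in estrus, 29.0, 38.5 and 35.2 in metestrus and 26.9, 34.1 and 37.9 in diestrus (log2 fold change -1.08 ± 0.21 SE, edgeR adjusted p = 0.00389). Mcm10 (chr2:4989714-5012791, minus strand), which helps the helicase start, was near the floor in estrus. It measured 8.56, 9.16 and 11.7 CPM in proestrus, 0.619, 1.72 and 1.37 in estrus, 2.08, 6.94 and 0.596 in metestrus and 2.49, 6.43 and 4.53 in diestrus (log2 fold change -2.90 ± 0.66 SE, edgeR adjusted p = 0.00998). Those values rest on 55 counts in the 3 proestrus libraries and 7 in the 3 estrus libraries, a ratio of 7.82 after scaling (exact 95% interval 3.55 to 20.3, counting error only). Gins1, Gins3 and Gins4 had log2 fold changes of -1.69, -1.22 and -0.42 and did not pass. Cdc45 is described separately below.

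The clamp and its loader gave 3 calls of 5. Pcna (chr2:132249162-132253314, minus strand), the sliding clamp that tethers the polymerases, measured 104, 110.0 and 117 CPM in proestrus, 41.5, 50.3 and 44.0 in estrus, 59.1, 101 and 66.8 in metestrus and 84.2, 78.6 and 86.0 in diestrus. No other stage overlapped estrus, and the estrus mean of 45.2 ± 4.58 CPM (SD, n = 3) was 2.44-fold below the proestrus mean of 110.2 ± 6.46 (log2 fold change -1.28 ± 0.18 SE, edgeR adjusted p = 0.000701). The pseudogene Pcna-ps2 shares 23.3% of the 31-base words of Pcna, so part of its count is uncertain. The loader subunit Rfc5 (chr5:117378103-117389047, minus strand) measured 43.9, 49.6 and 49.7 CPM in proestrus, 26.6, 23.4 and 28.9 in estrus, 32.7, 42.9 and 26.8 in metestrus and 36.9, 34.1 and 32.8 in diestrus, a smaller change than that of Pcna with no overlap between proestrus and estrus (log2 fold change -0.86 ± 0.18 SE, edgeR adjusted p = 0.00614). Rfc3 (chr5:151642756-151651242, minus strand), another loader subunit, measured 37.6, 29.1 and 26.9 CPM in proestrus, 13.0, 19.4 and 16.0 in estrus, 21.3, 23.4 and 16.1 in metestrus and 20.9, 16.3 and 25.5 in diestrus (log2 fold change -0.94 ± 0.24 SE, edgeR adjusted p = 0.0163). Its call was lost without proestrus 1 (adjusted p = 0.0713), estrus 3 (0.0612) or estrus 5 (0.0536, all edgeR). Rfc2 and Rfc4 had log2 fold changes of -0.47 and -0.79 and did not pass.

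Of the polymerase and primase genes 3 of 7 were called. Pola1 (chrX:93304767-93632155, minus strand), the catalytic subunit of polymerase alpha, measured 30.2, 22.1 and 39.6 CPM in proestrus, 13.6, 12.6 and 13.7 in estrus, 14.5, 25.2 and 9.54 in metestrus and 26.4, 22.7 and 25.5 in diestrus. The 3 estrus uteri lay close together, and metestrus 7 was lower still (log2 fold change -1.20 ± 0.30 SE, edgeR adjusted p = 0.0162). The call was lost without proestrus 3 (adjusted p = 0.0819) or estrus 4 (0.0533, both edgeR). Prim1 (chr10:128015168-128030037, plus strand), the small primase subunit that lays the RNA primer, measured 20.0, 14.0 and 14.7 CPM in proestrus, 9.90, 4.00 and 5.04 in estrus, 11.4, 16.4 and 11.3 in metestrus and 18.9, 16.8 and 15.3 in diestrus (log2 fold change -1.38 ± 0.33 SE, edgeR adjusted p = 0.0127). It was lost without proestrus 1, estrus 4 or estrus 5 (edgeR adjusted p = 0.0547, 0.0504 and 0.0556). Pold2 (chr11:5872180-5878292, minus strand), an accessory subunit of polymerase delta, measured 7.42, 7.55 and 6.60 CPM in proestrus, 3.09, 3.43 and 1.83 in estrus, 4.15, 10.7 and 9.54 in metestrus and 8.97, 12.8 and 9.06 in diestrus (log2 fold change -1.37 ± 0.44 SE, edgeR adjusted p = 0.0478). It lost its call in 9 of the 12 leave-one-out fits, each without a library of proestrus, estrus or diestrus, with edgeR adjusted p up to 0.160 without estrus 5.

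Prim2 (chr1:33453810-33669795, minus strand), the large primase subunit and the gene of this group with the highest CPM, was nearly level. It measured 50.2, 62.5 and 56.8 CPM in proestrus, 53.8, 43.5 and 42.6 in estrus, 47.7, 54.9 and 38.8 in metestrus and 51.9, 45.5 and 54.9 in diestrus (log2 fold change -0.28 ± 0.16 SE, edgeR adjusted p = 0.265). Only 13.1% of its counts lay on transcripts that end near a coding 3' end. Pola2, Pold1 and Pole had log2 fold changes of -0.48, -0.78 and -0.45 and did not pass. Pole2 had 14 counts in proestrus and 2 in estrus, a ratio of 6.96 (exact 95% interval 1.60 to 63.1, counting error only), and was not tested.

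Both genes that join Okazaki fragments fell in estrus, and both calls were fragile. Lig1 (chr7:13277283-13311433, plus strand), the ligase that seals nicks on the lagging strand, measured 53.6, 52.3 and 50.2 CPM in proestrus, 13.0, 23.4 and 22.0 in estrus, 17.6, 60.6 and 23.2 in metestrus and 39.9, 33.1 and 44.1 in diestrus. Estrus and metestrus 5 and 7 were low and metestrus 6 was the highest uterus of all (log2 fold change -1.40 ± 0.36 SE, edgeR adjusted p = 0.0177). That call was lost without proestrus 1 (adjusted p = 0.0516) or estrus 3 (0.0701, both edgeR). Fen1 (chr19:10199132-10204169, minus strand), the flap nuclease that trims the fragments, measured 16.0, 7.01 and 12.7 CPM in proestrus, 6.80, 5.15 and 3.21 in estrus, 6.74, 12.0 and 8.94 in metestrus and 10.5, 10.9 and 7.36 in diestrus (log2 fold change -1.25 ± 0.40 SE, edgeR adjusted p = 0.0463). Its call was lost in 8 of 12 fits, with edgeR adjusted p between 0.0522 without estrus 3 and 0.172 without proestrus 1. The single-strand binding complex RPA gave 1 call of 3, in its large subunit Rpa1 (chr11:75298166-75348324, minus strand). Rpa1 measured 49.6, 46.9 and 51.3 CPM in proestrus, 18.6, 24.0 and 25.6 in estrus, 41.0, 56.2 and 34.0 in metestrus and 42.9, 42.5 and 50.9 in diestrus, with estrus below the other 9 uteri (log2 fold change -1.10 ± 0.20 SE, edgeR adjusted p = 0.00274).

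The smaller subunits Rpa2 and Rpa3 just missed the threshold against proestrus and passed it against diestrus. Rpa2 (chr4:132768332-132778752, plus strand) measured 20.0, 17.8 and 23.9 CPM in proestrus, 9.90, 12.0 and 10.5 in estrus, 12.4, 27.8 and 19.7 in metestrus and 15.9, 19.8 and 26.6 in diestrus, with a log2 fold change of -0.92 ± 0.30 SE against proestrus (edgeR adjusted p = 0.0502) and 0.93 ± 0.30 SE from estrus to diestrus (edgeR adjusted p = 0.0389). Rpa3 (chr6:8255936-8259173, minus strand) measured 14.8, 12.9 and 19.8 CPM in proestrus, 9.90, 9.15 and 9.62 in estrus, 13.5, 12.6 and 11.9 in metestrus and 21.4, 17.3 and 24.9 in diestrus (F test, edgeR adjusted p = 0.0163). Its diestrus uteri were above proestrus 1 and 2, but proestrus against diestrus was not called (log2 fold change -0.41 ± 0.23 SE, edgeR adjusted p = 0.320). From estrus to diestrus Rpa3 rose (log2 fold change 1.14 ± 0.24 SE, edgeR adjusted p = 0.00434).

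All 5 genes of nucleotide supply fell in estrus, the only role with more than 2 genes in which every tested gene passed in this comparison. Dut (chr2:125247190-125258608, plus strand), which destroys dUTP so that uracil is kept out of DNA, measured 71.9, 58.8 and 86.3 CPM in proestrus, 11.8, 11.4 and 16.9 in estrus, 30.1, 80.8 and 46.5 in metestrus and 64.8, 60.3 and 56.0 in diestrus. Estrus stood below all 9 other uteri, and its mean was 5.40-fold below proestrus (log2 fold change -2.41 ± 0.31 SE, edgeR adjusted p = 0.000453). Rrm2 (chr12:24708241-24714146, plus strand), the ribonucleotide reductase subunit made in S phase, measured 18.8, 11.9 and 23.3 CPM in proestrus, 3.71, 2.86 and 2.29 in estrus, 3.11, 20.2 and 7.75 in metestrus and 7.98, 10.4 and 10.8 in diestrus, with metestrus 5 in the range of estrus (log2 fold change -2.61 ± 0.56 SE, edgeR adjusted p = 0.00701). Its partner Rrm1 (chr7:102441695-102469771, plus strand), which sets the enzyme's specificity, changed less, with 92.4, 79.8 and 99.0 CPM in proestrus, 53.2, 46.9 and 39.8 in estrus, 64.3, 96.6 and 52.5 in metestrus and 68.3, 64.8 and 70.2 in diestrus (log2 fold change -0.96 ± 0.20 SE, edgeR adjusted p = 0.00588).

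Tyms (chr5:30058202-30073617, minus strand), which makes thymidylate, measured 41.1, 35.6 and 46.2 CPM in proestrus, 13.0, 16.0 and 14.2 in estrus, 18.7, 41.0 and 28.6 in metestrus and 28.4, 33.1 and 27.7 in diestrus. Every estrus uterus lay below the other 9 (log2 fold change -1.50 ± 0.25 SE, edgeR adjusted p = 0.00196). Tk1 (chr11:117815526-117826092, minus strand), the thymidine kinase of S phase, measured 25.7, 11.9 and 21.8 CPM in proestrus, 9.28, 3.43 and 4.58 in estrus, 2.08, 18.9 and 8.35 in metestrus and 9.47, 12.8 and 10.8 in diestrus (log2 fold change -1.79 ± 0.56 SE, edgeR adjusted p = 0.0426). It was lost in 7 of 12 fits, each without a proestrus, estrus or diestrus library, with edgeR adjusted p up to 0.137 without estrus 4. Its 3 metestrus uteri spanned most of the range of the cycle, from 2.08 CPM in metestrus 5 to 18.9 in metestrus 6.

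Among the 3 regulators of S-phase entry, cyclin E2 fell and cyclin E1 and E2f1 did not pass. Ccne2 (chr4:11191351-11204779, plus strand) measured 15.4, 12.9 and 19.3 CPM in proestrus, 3.71, 2.86 and 3.21 in estrus, 3.63, 16.4 and 8.35 in metestrus and 14.0, 8.40 and 11.9 in diestrus, with metestrus 5 again in the range of estrus (log2 fold change -2.27 ± 0.47 SE, edgeR adjusted p = 0.00594). Ccne1, with 1.56 to 12.5 CPM, and E2f1, with 2.47 to 11.7 CPM, had log2 fold changes of -0.92 ± 0.63 SE and -1.07 ± 0.46 SE (edgeR adjusted p = 0.356 and 0.123). Of the genes that copy chromatin, Uhrf1 (chr17:56303321-56323486, plus strand), which recruits the maintenance methyltransferase to newly copied DNA, had the largest fold change of the 43. It measured 44.5, 41.5 and 77.7 CPM in proestrus, 6.19, 10.9 and 4.12 in estrus, 8.30, 56.8 and 14.9 in metestrus and 21.9, 22.2 and 18.1 in diestrus. The 3 estrus uteri were lowest together with metestrus 5 (log2 fold change -2.97 ± 0.58 SE, edgeR adjusted p = 0.00458). Some 24.2% of its 31-base words occur in other genes, mostly the pseudogene Gm5648.

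Dnmt1, the maintenance methyltransferase itself, had a log2 fold change of -0.90 ± 0.30 SE and did not pass (edgeR adjusted p = 0.0541), though it passed in each of the 3 fits without a metestrus library. Slbp (chr5:33634952-33652574, minus strand), which binds the stem-loop of histone mRNAs, had the highest CPM of this group and a small fold change that did not pass. Every estrus uterus lay below every proestrus uterus. It passed in some fits that left out 1 library, such as that without diestrus 3 (edgeR adjusted p = 0.0361), and with limma (adjusted p = 0.0490). It measured 85.6, 89.0 and 98.5 CPM in proestrus, 75.5, 64.1 and 55.9 in estrus, 75.7, 82.7 and 80.5 in metestrus and 51.9, 73.7 and 78.1 in diestrus (log2 fold change -0.49 ± 0.16 SE, edgeR adjusted p = 0.0564). The chromatin assembly genes Chaf1a and Chaf1b were not tested, with 0 to 16 and 1 to 19 counts in a library. Replication-dependent histone mRNAs carry no poly(A) tail and are not among the 47 genes.

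Cdc45 (chr16:18780447-18811987, minus strand) was the exception to the order of stages. Summed over its transcripts it measured 41.1, 32.3 and 82.7 CPM in proestrus, 108, 91.5 and 74.2 in estrus, 33.2, 26.5 and 24.4 in metestrus and 23.4, 30.1 and 18.7 in diestrus. Estrus was highest in 2 of its uteri and overlapped proestrus 3 in the third, with a log2 fold change from proestrus of 0.80 ± 0.28 SE that did not pass (edgeR adjusted p = 0.0684) until proestrus 3 was left out (edgeR adjusted p = 0.00814). It also passed with limma (adjusted p = 0.0364) and with no filter on low counts (edgeR adjusted p = 0.0275). From estrus it fell to metestrus (log2 fold change -1.69 ± 0.30 SE, edgeR adjusted p = 0.00548) and stayed low in diestrus (log2 fold change -1.91 ± 0.30 SE, edgeR adjusted p = 0.000764). A single transcript, ENSMUST00000231819, carried 94.5% of these counts. It is annotated as a retained intron of 1484 bases at chr16:18810108-18811591, at the 5' side of the gene, and ends 2752 bases from the nearest 3' end of a coding transcript of Cdc45. That nearest end belongs to ENSMUST00000115585, a coding transcript of 832 bases with 0 counts. The coding transcripts that held counts end much further away, at 18780453 and 18780447.

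Counts assigned to the Cdc45 transcripts that end at a coding 3' end went the other way. Transcripts that end within 500 bases of such an end were assigned 15, 6 and 12 counts in proestrus and 1, 0 and 2 in estrus. They were assigned 2, 3 and 3 in metestrus and 6, 6 and 3 in diestrus. These are counts of whole transcripts, and where the reads lay along them was not available. The stage total was lowest in estrus, with 33 counts in proestrus against 3 in estrus, and estrus 5 equalled metestrus 5. The stages have too few counts for more than this description, which was made after the values of Cdc45 had been seen. Ufd1, a gene on the opposite strand that overlaps Cdc45, measured 42.2, 49.6 and 54.8 CPM in proestrus and 48.9, 56.6 and 60.9 in estrus. It measured 59.1, 60.6 and 50.7 CPM in metestrus and 62.8, 68.7 and 57.7 in diestrus. Its estrus and proestrus uteri overlapped, and every diestrus uterus lay above every proestrus uterus. The use of strand in counting is not given in the sources used here. Without Cdc45 the summed level of the remaining 46 genes was 1398 ± 126 CPM in proestrus, 643.1 ± 7.71 in estrus, 1042 ± 323 in metestrus and 1104 ± 55.3 in diestrus (SD, n = 3), so that estrus stood at 46.0% of proestrus.

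**Figure D4:**
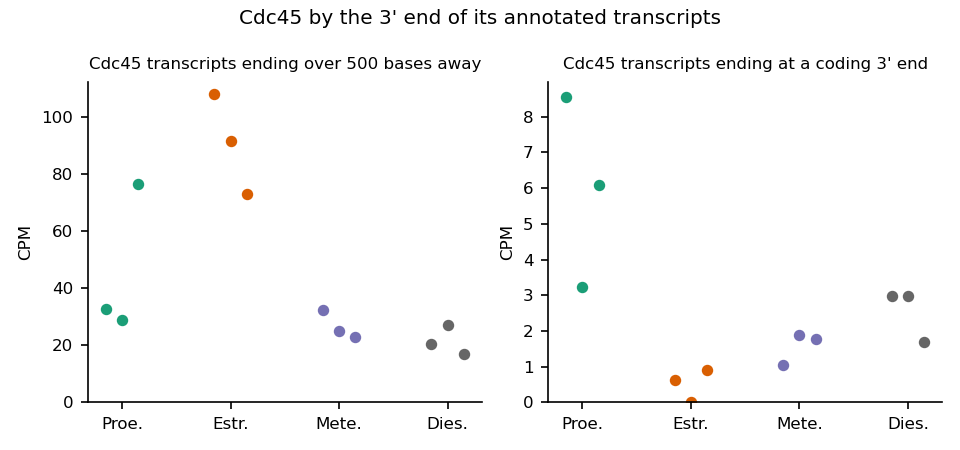
CPM of Cdc45 in 12 uteri by stage (points), split into transcripts that end over 500 bases from a coding 3' end (left) and those that end within 500 bases of one (right, on a smaller scale). Estrus is highest on the left and lowest on the right.

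After estrus the genes rose again, less evenly. From estrus to metestrus 9 of 43 were called, against 7.56% of all tested genes. Of these, 8 were higher, against 2.83% called higher, and Cdc45 was lower, against 4.73% called lower. The 8 were Orc6, Mcm2, Mcm3, Mcm6, Pcna, Rpa1, Tyms and Dut. Mcm3 rose 4.08-fold (log2 fold change 2.00 ± 0.24 SE, edgeR adjusted p = 0.000418) and Dut 3.92-fold (log2 fold change 1.94 ± 0.32 SE, edgeR adjusted p = 0.00328), and both kept their call in all 12 fits that left out a library, as did Orc6 (log2 fold change 1.28 ± 0.24 SE, edgeR adjusted p = 0.00682) and Cdc45. The calls of Mcm2, Mcm6, Pcna, Rpa1 and Tyms were each lost in at least 1 fit, Rpa1 only without estrus 3 (edgeR adjusted p = 0.0558) and Mcm2 in 8. In all, the count was 5 without estrus 3, 5 without metestrus 6 and 16 without metestrus 5. The median log2 fold change was 0.76.

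Between metestrus and diestrus 0 of the 43 genes were called with edgeR, against 0.224% of all tested genes, and 2 had an unadjusted p under 0.05. No alternative test, including DESeq2 and limma, called any. The median log2 fold change was 0.11, with values from -1.12 to 0.90, and the metestrus uteri covered more than the diestrus range in the summed level.

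From estrus to diestrus 18 of 43 were called, against 22.8% of all tested genes. Of these, 17 were higher, against 9.72% called higher, and Cdc45 was lower, against 13.0% called lower. All 3 estrus uteri lay below all 3 diestrus uteri in 30 of 43 (20.6% of all tested genes), and the median log2 fold change was 0.95. Without metestrus 6 there were 25 calls. Comparisons with estrus share the same 3 estrus uteri, so that these counts and those against proestrus are not independent. Called both lower than in proestrus and lower than in diestrus were 15 genes. The share of all tested genes called in both is not given here, so this count cannot be set against it. Dut rose 4.51-fold (log2 fold change 2.15 ± 0.31 SE, edgeR adjusted p = 0.000437), Mcm3 3.59-fold (log2 fold change 1.82 ± 0.24 SE, edgeR adjusted p = 0.000224), Mcm2 3.49-fold (log2 fold change 1.78 ± 0.34 SE, edgeR adjusted p = 0.00234) and Pold2 3.69-fold (log2 fold change 1.89 ± 0.43 SE, edgeR adjusted p = 0.00634). By role 6 of 9 helicase loading genes rose, all 3 RPA subunits, 3 of 7 polymerase and primase genes, and 2 of 5 nucleotide genes. Calls lost when 1 library was left out were those of Ccne2, Gins2, Mcm5, Mcm6, Pola1 and Rpa2. They were lost for Mcm5 and Mcm6 only without estrus 5 (edgeR adjusted p = 0.0646 and 0.0660), and Pola1 in 7 fits, up to 0.117 without diestrus 3.

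Few genes were called between diestrus and proestrus. From diestrus to proestrus 2 of 43 were called, Mcm3 (log2 fold change 0.68 ± 0.20 SE, edgeR adjusted p = 0.0486) and Cdc45 (log2 fold change 1.11 ± 0.31 SE, edgeR adjusted p = 0.0401), both higher in proestrus, against 8.53% of all tested genes called, 4.62% higher and 3.91% lower. These 2 calls depended on single libraries. The count was 0 without proestrus 3, estrus 3, estrus 4, diestrus 4 or diestrus 5. It was 1 without proestrus 1, proestrus 2, estrus 5 or diestrus 3, and 4 without metestrus 6. The median log2 fold change was 0.38, and in 18 of 43 every proestrus uterus lay above every diestrus uterus, against 15.8% of all tested genes.

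Metestrus against proestrus gave 0 calls of 43 with edgeR, against 4.31% of all tested genes, although 10 had an unadjusted p under 0.05 and the median log2 fold change was -0.49. DESeq2 also called 0 and limma called 1. The count of calls changed when metestrus 6 was left out. Without it 14 genes were called, all lower in metestrus, among them Mcm5 (adjusted p = 0.00277), Uhrf1 (0.00436), Pcna (0.00559), Lig1 (0.00561), Dnmt1 (0.00600), Pola1 (0.0128) and Mcm10 (0.0173, all edgeR). The other 7 were Dut, Rrm1, Rrm2, Rfc5, Ccne2, Tk1 and Tyms, with edgeR adjusted p from 0.0255 to 0.0439. The 4.31% is that of the fit to all 12 libraries. A share of all tested genes called without metestrus 6 is not given here, so these 14 calls cannot be set against it.

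The metestrus uteri differed from each other in the genes of S phase and in those of mitosis. The 46 replication genes without Cdc45 summed to 834.0, 1414 and 877.0 CPM in metestrus 5, 6 and 7. For the 18 mitosis genes of a comparison list the sums were 54.5, 847.7 and 267.7 CPM in the same uteri. Metestrus 5 lay below all 3 estrus uteri in the mitosis sum, which were at 185.6, 154.4 and 142.4 CPM, yet above all 3 in the replication sum. Top2a, which untangles copied chromosomes and had the highest CPM of the list, measured 152, 106 and 183 CPM in proestrus, 24.1, 24.0 and 29.8 in estrus, 11.9, 171 and 72.7 in metestrus and 78.8, 111 and 92.2 in diestrus. It was lowest in metestrus 5. Gene by gene, metestrus 5 lay below all 3 estrus uteri in 16 of the 18 mitosis genes and within their range in 2. Of the 43 replication genes it lay below them in 7 (Cdc6, Cdc45, Pola2, Pole, Tk1, Ccne1 and Dnmt1), within their range in 14 and above them in 22. These are the values of 1 uterus and carry no test.

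**Figure D5:**
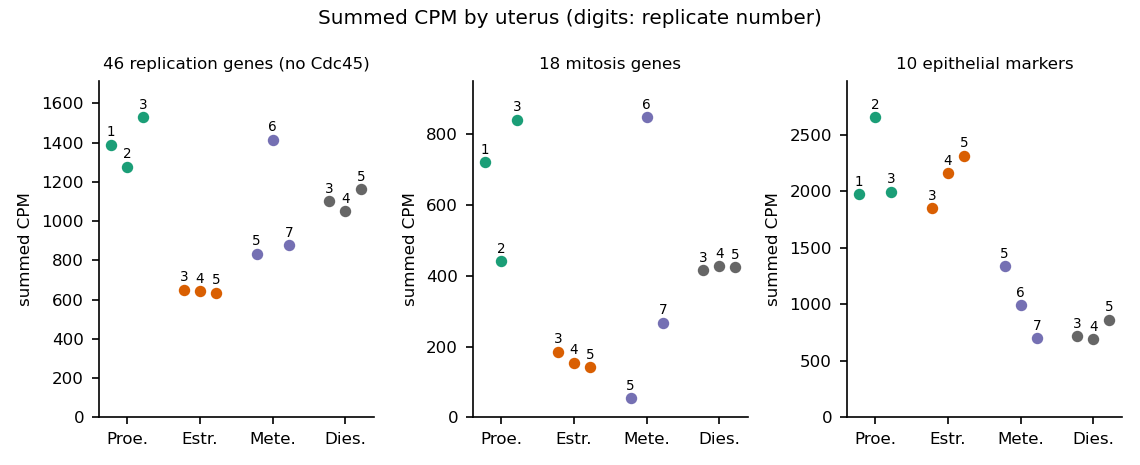
Summed CPM in each uterus (points, labelled with the replicate number) for 46 replication genes without Cdc45, 18 mitosis genes and 10 epithelial markers, by stage. Metestrus 6 is high and metestrus 5 low for mitosis genes, while epithelial markers are high in proestrus and estrus alike.

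Other genes of the same processes were read from comparison lists. Of the 23 tested genes of a list of 30 further replication and fork genes (Chtf8, which matched more than 1 gene, was left out), 5 fell from proestrus to estrus and none rose, with a median log2 fold change of -0.59. Named by the smallest F test p were Rnaseh2b, a subunit of the enzyme that removes RNA from DNA, at 29.7, 23.7 and 23.9 CPM in proestrus against 14.8, 10.9 and 10.1 in estrus (log2 fold change -1.12 ± 0.22 SE, edgeR adjusted p = 0.00492), and Atad5. The latter, which unloads Pcna, was at 18.2, 14.0 and 26.4 CPM in proestrus against 6.80, 5.72 and 6.87 in estrus (log2 fold change -1.59 ± 0.40 SE, edgeR adjusted p = 0.0173). Rfc1, the large clamp loader subunit and the gene with the highest CPM of the list, was level at 111, 103 and 121 CPM in proestrus against 111, 105 and 96.6 in estrus (log2 fold change -0.10 ± 0.13 SE, edgeR adjusted p = 0.639). Its proestrus and estrus values overlapped, while those of Rfc3 and Rfc5 did not. The other 3 that fell, named after their values were seen, were Pole3 (log2 fold change -0.83 ± 0.22 SE, edgeR adjusted p = 0.0226), Clspn (log2 fold change -1.88 ± 0.58 SE, edgeR adjusted p = 0.0400) and Tipin (log2 fold change -1.47 ± 0.47 SE, edgeR adjusted p = 0.0478).

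Regulators of the G1 to S transition gave 8 of 26 tested genes lower in estrus and 3 higher, the latter near the share of all tested genes called higher (9.67%, with 7.46% lower). All 3 that rose were inhibitors of cyclin-dependent kinases. The list also holds the inhibitors Cdkn2c and Cdkn2d, which were not called higher. Cdkn1a, which encodes p21, measured 32.5, 30.7 and 29.4 CPM in proestrus, 46.4, 57.8 and 67.3 in estrus, 28.5, 18.9 and 20.3 in metestrus and 16.9, 12.4 and 13.6 in diestrus (log2 fold change 0.89 ± 0.19 SE, edgeR adjusted p = 0.00751). Cdkn1b, which encodes p27, measured 52.5, 60.9 and 41.1 CPM in proestrus, 104, 85.8 and 92.5 in estrus, 58.6, 65.7 and 70.3 in metestrus and 48.9, 61.3 and 54.9 in diestrus (log2 fold change 0.87 ± 0.16 SE, edgeR adjusted p = 0.00332). Cdkn1c, named after its values were seen, rose too (log2 fold change 1.47 ± 0.40 SE, edgeR adjusted p = 0.0235). Their estrus and proestrus values did not overlap, the opposite order to that of the replication genes. Of the D-type cyclins, which start the passage out of G1, Ccnd1 and Ccnd2 fell and Ccnd3 did not pass (log2 fold change -0.31 ± 0.21 SE, edgeR adjusted p = 0.360). Ccnd1 measured 143, 132 and 138 CPM in proestrus against 59.4, 36.6 and 56.3 in estrus (log2 fold change -1.43 ± 0.22 SE, edgeR adjusted p = 0.00113). Ccnd2 measured 153, 102 and 88.8 CPM in proestrus against 49.5, 48.6 and 45.3 in estrus (log2 fold change -1.26 ± 0.27 SE, edgeR adjusted p = 0.00701). Ccna2, the cyclin of S phase and G2, measured 42.8, 36.7 and 58.9 CPM in proestrus, 12.4, 11.4 and 10.1 in estrus, 18.7, 51.1 and 25.0 in metestrus and 25.4, 38.1 and 37.9 in diestrus (log2 fold change -2.03 ± 0.35 SE, edgeR adjusted p = 0.00210). Cdk4, the gene of the list with the highest CPM, did not pass (log2 fold change -0.32 ± 0.16 SE, edgeR adjusted p = 0.182).

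In the mitosis list 10 of 18 fell in estrus and none rose, with a median log2 fold change of -2.13, further below 0 than the -1.20 of the replication genes, a difference that was not tested. Top2a was among them (log2 fold change -2.49 ± 0.59 SE, edgeR adjusted p = 0.0116), and Ccnb2, a mitotic cyclin, measured 21.7, 15.6 and 25.9 CPM in proestrus, 5.57, 5.15 and 4.12 in estrus, 3.63, 17.7 and 6.56 in metestrus and 14.0, 14.3 and 12.4 in diestrus (log2 fold change -2.09 ± 0.44 SE, edgeR adjusted p = 0.00671). Both showed the low metestrus 5 and high metestrus 6. In a list of further nucleotide enzymes 3 of 9 tested fell. Dctd, which feeds thymidylate synthesis, measured 11.4, 6.47 and 12.7 CPM in proestrus against 1.86, 4.00 and 3.21 in estrus (log2 fold change -1.72 ± 0.50 SE, edgeR adjusted p = 0.0320). Dctpp1 measured 27.9, 22.1 and 26.9 CPM in proestrus against 12.4, 17.7 and 19.2 in estrus (log2 fold change -0.63 ± 0.20 SE, edgeR adjusted p = 0.0471). Nt5c, a nucleotidase, passed the F test (F test, edgeR adjusted p = 0.0229) but not this contrast. Samhd1, a dNTP hydrolase and the list's highest in CPM, did not pass (log2 fold change 0.32 ± 0.28 SE, edgeR adjusted p = 0.486). From estrus to diestrus 3 of 23, 6 of 26, 2 of 18 and 3 of 9 genes of these lists rose in the order given here, and none fell except 3 regulators of the G1 to S transition. Of all tested genes 9.72% were called higher and 13.0% lower, and the counts of calls for the further replication genes, the mitosis genes and the 3 that fell were near those shares. All 18 mitosis genes nevertheless had a log2 fold change above 0, with a median of 1.49. In 16 of these 18 every diestrus uterus lay above every estrus uterus, against 20.6% of all tested genes. The same held in 8 of the 23 further replication genes.

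Markers of the cell types of the uterus moved beside these genes, and their part in the results was not tested. The 6 uterine markers were also lowest in estrus, with sums of 423.7 to 465.6 CPM in estrus and 712.6 to 816.8 in proestrus (58.6%), 737.5 to 885.0 in metestrus and 838.2 to 982.6 in diestrus. Of these 6, 3 fell from proestrus to estrus (7.46% of all tested genes) and 3 rose from estrus to metestrus (2.83% of all tested genes). The summed level of 10 epithelial markers ran from 1978 to 2654 CPM in proestrus and 1850 to 2317 in estrus, and 2 of 10 rose and none fell. It was lower later, from 701.7 to 1337 in metestrus and 692.6 to 866.5 in diestrus, where the replication genes stood above estrus. All 7 macrophage markers rose from proestrus to estrus, from 233.9 to 298.1 CPM in sum to 551.9 to 610.3. Of 8 smooth muscle markers 4 rose (6488 to 9140.5 CPM in sum in proestrus and 8736 to 11207 in estrus), and of 8 stromal markers 1 rose and 2 fell (13563 to 13934 CPM and 10256 to 10752). None of 7 endothelial, 4 tested neutrophil or 3 tested lymphocyte markers passed the test between these stages, nor did those of ovary, adipocyte or red blood cell, and 1 of 2 tested oviduct markers rose. Of all tested genes 9.67% were called higher in estrus than in proestrus and 7.46% lower. The 1 of 8 stromal markers that rose was near that share. The 5 red blood cell markers summed to 163.4, 1433 and 835.2 CPM in metestrus 5, 6 and 7, and the 8 stromal markers to 6752, 14889 and 12245, both highest in the uterus where replication genes were highest. Epithelial markers summed to 1337, 996.1 and 701.7 CPM in these uteri and were highest in metestrus 5.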

How the data were processed

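Polyadenylated RNA of 12 whole uteri, 3 per stage by the labels' estrous cycle stage, was measured by 3' TagSeq. The authors deposited estimated counts, TPM and lengths for 119414 transcripts per library, per the file headers. FastQC, kallisto and DESeq2 are named in the submitters' processing notes. The annotation used and the strand setting are not given in the sources used here.

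Transcripts were matched without version to GENCODE M21 (GRCm38). Of these, 97.7% matched, and the rest, 0.619% to 0.774% of each library's counts, was left out. Estimated counts were summed per gene and rounded. Libraries held 1652841 to 2200563 estimated counts. No molecular identifiers are described, so intervals and floors cover counting error only.

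Genes kept by edgeR's filterByExpr (12052) were fitted in edgeR 4.0.16 (R 4.3.3, TMM factors, 1 coefficient per stage, all 12 libraries, quasi-likelihood), with an F test and 6 two-sided contrasts adjusted by Benjamini-Hochberg over all 12052 genes. The biological coefficient of variation was 20.6%. The method was also tested on simulated data. There, estrus against proestrus was called for 38 of 100 genes with a simulated 2-fold change and 65 of 100 with a 4-fold change. Calls on unchanged genes numbered 6. CPM values are TMM-scaled. Alternatives were other scalings and filters, DESeq2 1.42.0, limma 3.58.1, counts scaled from the deposited TPM, fits to 2 stages, a replicate block, each library left out, and, added after seeing the data, only transcripts that end within 500 bases of a coding 3' end.

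The 47 genes and the comparison and marker lists were chosen with earlier results of these data known, so no list is independent evidence. Values in every uterus are printed for genes called in the F test or a contrast and for the gene of each role with the highest CPM. From each comparison list up to 5 genes with the smallest F test p among those called, and the most abundant gene are named; any other named gene was chosen after its values were seen. A gene of the list of further nucleotide enzymes that this rule names is not reported here.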

Additional observations from a re-analysis of the deposited data

How the results depend on the processing

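For the 27 genes called in the F test or a contrast, each in its contrast with the smallest p, 517 of 554 recomputed values kept their direction and side of the threshold, 37 kept the direction and lost the call, and 0 changed direction. Taking the smallest p favours agreement. In all 12 fits that left out 1 library, 11 of 23 F test calls held. So did 17 of 24 calls for estrus against proestrus and 4 of 9 for metestrus against estrus. For diestrus against estrus 12 of 18 held, and for proestrus against diestrus 0 of 2. Calls among the replication genes, of which 43 were tested with all libraries, over the fits that left out 1 library ran from 14 to 28 for any stage, 18 to 29 for estrus against proestrus, 5 to 16 for metestrus against estrus, 0 to 4 for proestrus against diestrus, 0 to 14 for metestrus against proestrus and 12 to 25 for diestrus against estrus. A minimum mean of 50 counts, which left 15 of the genes to test, gave 9 calls for any stage, 11 for estrus against proestrus and 8 for diestrus against estrus. For metestrus against estrus there were 9 calls, 15 with no filter, and 4 with counts scaled from TPM or with a fit to the 2 stages; the cause was not tested. For proestrus against diestrus there were 2 calls, 1 with library totals, DESeq2, limma, the minimum of 50 counts or transcripts ending near a coding 3' end, 0 with counts scaled from TPM and 6 with a fit to the 2 stages; the cause was not tested. For metestrus against proestrus there were 0 calls, 1 with limma and 2 with no filter. Diestrus against metestrus gave 0 calls in every fit. Shares of all tested genes called are printed for the main fit only, so the counts of the other fits have none beside them. Estrus and diestrus share the replicate numbers 3, 4 and 5, but deviations of same-numbered uteri from their stage means correlated at -0.15, 0.0079 and -0.027, and no estrus uterus and only diestrus 4 of the diestrus uteri correlated best with its own number, so the numbers were not taken as pairs. With the number as a block, the fit to these 6 uteri called 26 of 38 tested genes, against 25 of 38 without the block. Depth limits Orc1, Pole2, Chaf1a, Chaf1b and the Cdc45 transcripts that end near a coding 3' end, whose counts are too few for a test.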

Other observations

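Besides Cdc45, 4 of the 47 genes had less than 50% of their counts on transcripts that end within 500 bases of a coding 3' end: Ccne1 (23.6%), Pole (21.8%), Prim2 (13.1%) and Slbp (30.8%). None of them was called between estrus and proestrus in the main fit, and their counts were split the same way after this was seen. Counts at the coding ends are those assigned to whole transcripts that end there, and read positions were not available. In Pole, the catalytic subunit of polymerase epsilon, the coding ends had 23.0 estimated counts in proestrus and 1 in estrus, while the other transcripts had 37.1 and 42.0. Prim2 had 7.32 ± 0.694 CPM at its coding ends in proestrus and 3.53 ± 0.919 in estrus, against 49.3 ± 6.07 and 43.1 ± 6.95 elsewhere (SD, n = 3). In Slbp the coding ends measured 29.9 ± 0.865 CPM in proestrus and 15.4 ± 4.41 in estrus, and the other transcripts 61.1 ± 5.92 and 49.6 ± 5.42. Ccne1 had 10.1 estimated counts at its coding ends in proestrus and 1 in estrus, against 24.9 and 17.0 elsewhere. In all 4, as in Cdc45, the estrus level at the coding ends lay below that of proestrus, and counting over the whole gene gave a smaller difference or, in Cdc45, the opposite direction. The difference between the coding ends and the other transcripts of a gene was not tested. The coding ends of Slbp were tested in the fit to only transcripts that end near a coding 3' end. That fit called Slbp lower in estrus than in proestrus (edgeR adjusted p = 0.0461), while the main fit did not (edgeR adjusted p = 0.0564). In 33 of the 47 genes over 90% of counts lay on transcripts that end near a coding 3' end. Such an end can be that of a shortened coding transcript. Lig1 is among the 33, yet 53.1% of its counts lay on ENSMUST00000146998, a coding transcript of 944 bases that ends at chr7:13291517. Its coding transcript of 3091 bases ends at chr7:13311425. How many other genes this touches was not counted.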
